A study of Homo sapiens with 6 samples.

Results

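The genes described here encode 7 claudins (CLDN1, CLDN3, CLDN4, CLDN7, CLDN12, CLDN18 and CLDN23) and 3 proteins that sit beside claudins in tight junctions: occludin (OCLN), junctional adhesion molecule A (F11R) and the scaffold ZO-1 (TJP1). They were taken from the deposited gene table by gene symbol and make 10 of its 20263 genes. The list was chosen with earlier results of these data known. Polyadenylated RNA of AsPC-1 cells, an established human pancreatic adenocarcinoma line, had been sequenced after transfection, with jetPRIME, of 1 of 3 siRNA preparations. The groups were HMOX1si1 (a first siRNA against HMOX1), HMOX1si2 (a second siRNA against HMOX1) and siControl (a negative control siRNA), with 2 libraries each. HMOX1 encodes heme oxygenase 1, which breaks down heme. All groups were the same line and all were transfected, and an untransfected group was not analysed here. Nothing in the labels says that the 2 libraries of a group came from separate cultures, so each p-value measures the spread between these libraries, which may be technical.

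Tight junctions seal the space between neighbouring epithelial cells near their apical side. Claudins are 4-pass membrane proteins whose extracellular loops pair across that space, and the claudins a cell makes decide whether the seal is tight or lets particular ions through. Occludin and JAM-A are further membrane proteins of the seal, and ZO-1 is the scaffold inside the cell that ties claudins to one another and to actin. In ductal epithelium and in carcinomas of the pancreas, CLDN4 is a well-known abundant claudin.

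Library totals were 36144330 to 45068660 counts, and 13769 genes were high enough to be tested. Values are CPM, each count scaled to a common library total after TMM normalization, and the spread around a mean is the SD of 2 libraries. HMOX1 had 2.43 and 2.80 CPM in the HMOX1si1 libraries, 1.27 and 1.17 CPM in the HMOX1si2 libraries, and 9.06 and 8.52 CPM in the siControl libraries. It fell with HMOX1si1 by 1.75 on the log2 scale (edgeR quasi-likelihood test with Benjamini-Hochberg adjustment, SE 0.16, adjusted p = 0.00618) and with HMOX1si2 by 2.85 (edgeR, SE 0.17, adjusted p = 0.00951). HMOX1si2 minus HMOX1si1 was -1.10 on the log2 scale (edgeR adjusted p = 0.0284), a call that ended whichever library was left out (edgeR adjusted p 0.0789 to 0.141, log2 difference -1.20 to -0.99). The HMOX1si1 call ended without siControl replicate 2 (edgeR adjusted p = 0.0637) and the HMOX1si2 call without siControl replicate 1 (0.0779) or replicate 2 (0.0960), while all log2 fold changes with 1 library left out stayed at -1.65 or lower with HMOX1si1 and -2.79 or lower with HMOX1si2. All 6 epithelial markers (EPCAM, KRT7, KRT8, KRT18, KRT19 and CDH1) were above 1 CPM in every library, and their summed level was 8720 to 9060 CPM with HMOX1si1, 12300 to 13000 CPM with HMOX1si2 and 12600 to 14300 CPM with siControl. KRT8, KRT18 and KRT19 made most of this sum (means of 6202, 2934 and 3515 CPM with siControl) and fell with HMOX1si1. EPCAM, KRT7 and CDH1 did not pass with HMOX1si1 (edgeR log2 fold changes -0.05, -0.31 and 0.33). Among markers of other cell types, CD3E and HBB (blood cells), TEK (endothelium), and CPA1, AMY2A and INS (acinar and endocrine cells) were at 0 in all libraries. The summed level of 6 endothelial markers was at most 1.71 CPM and that of 7 acinar and endocrine markers at most 0.475 CPM in any library. Of 6 fibroblast markers 2, LUM and COL1A1, were above 1 CPM in every library, and the list summed to 91.2 to 95.4 CPM with HMOX1si1, 79.0 to 87.0 CPM with HMOX1si2 and 119 to 125 CPM with siControl. LUM, the proteoglycan lumican, made most of this and fell with HMOX1si2 (log2 fold change -0.60, edgeR adjusted p = 0.0317). Of 6 blood cell markers 1, the lysosomal CD68, was above 1 CPM in every library, and the list summed to 133 to 164 CPM with HMOX1si1, 95.1 to 129 CPM with HMOX1si2 and 88.0 to 93.0 CPM with siControl. The part of these markers in the results that follow was not tested. In such bulk samples, fewer cells of a kind and less RNA per cell cannot be told apart.

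Of the 10 genes, 9 were tested and CLDN18 was too low. The main result is a fall of CLDN23 with HMOX1si2, to less RNA than with HMOX1si1 or siControl. None of the 9 passed the test with HMOX1si1 (edgeR, adjusted p under 0.05), where 10.0% of all tested genes did; 2 of them, CLDN1 and TJP1, had an unadjusted p under 0.05, as did 30.8% of all tested genes, and DESeq2 called 1, TJP1. With HMOX1si2, 1 of the 9 passed, beside 5.73% of all tested genes. Averaged over both siRNAs 1 of 9 passed, beside 10.1% of all genes, and for the difference between the siRNAs 1 of 9 passed, beside 3.62%. With 9 genes tested, 1 is the smallest count above 0, and nothing is read from it about the set. The median log2 fold change of the 9 genes was -0.16 with HMOX1si1 and -0.45 with HMOX1si2, where that of all tested genes was -0.00 and 0.00. These medians are the values of CLDN7 with HMOX1si1 and CLDN12 with HMOX1si2, whose libraries overlapped the controls. With 1 library left out, these values ranged from -0.40 to 0.049 and from -0.89 to 0.19, so no shift of the set is read from the medians. Both siRNAs were compared with the same siControl libraries.

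**Figure D1:**
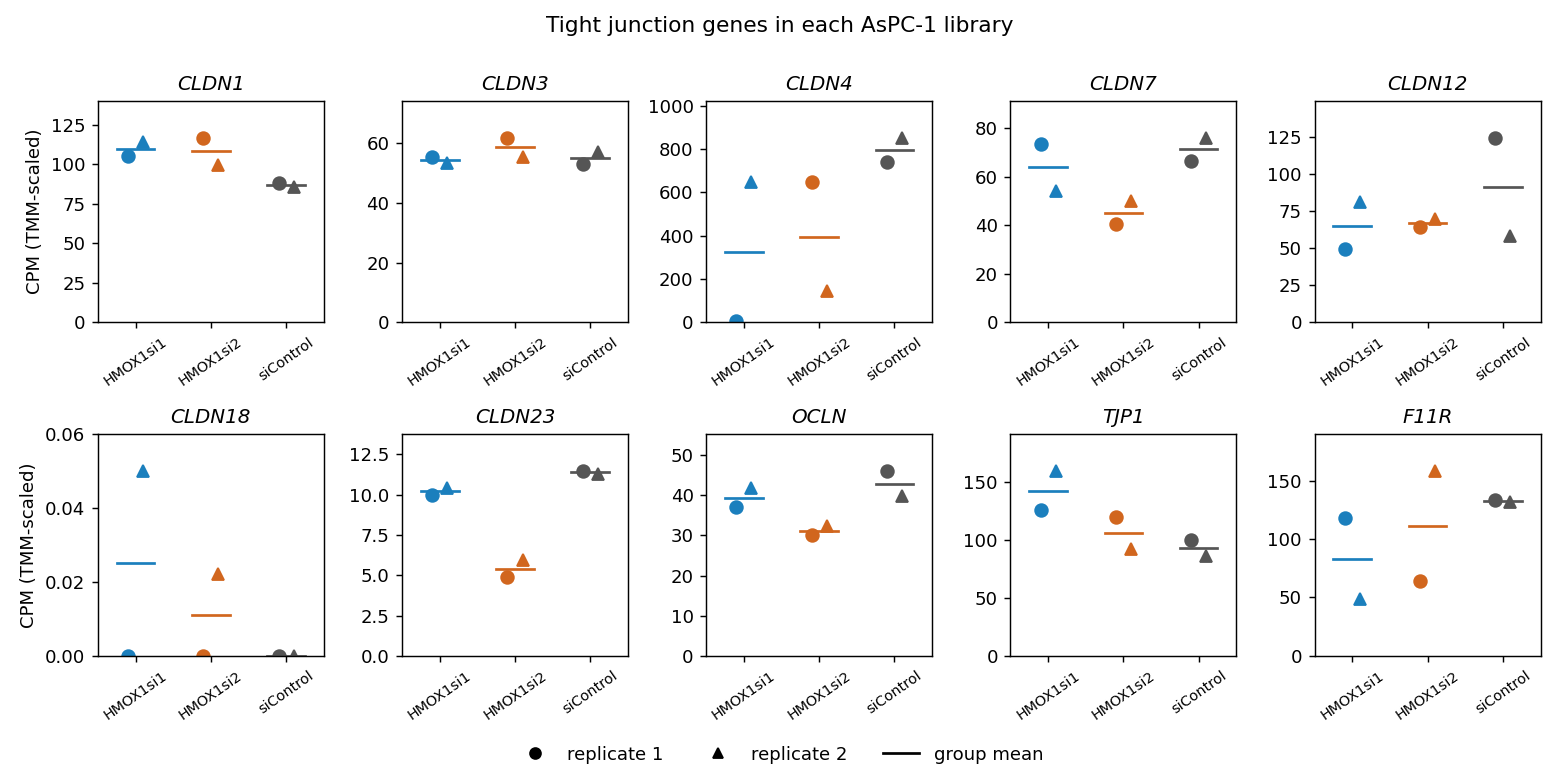
The level of each of the 10 genes in CPM (linear axis from 0, a scale of its own per gene) is plotted for each library by siRNA group, with a line at the group mean. CLDN23 stands at 4.86 and 5.97 CPM with HMOX1si2, below the other 4 libraries, while CLDN4, CLDN12 and F11R differ between replicates of the same group.

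CLDN23, an intronless claudin gene (ENSG00000253958, GRCh38 chromosome 8, 8701938 to 8704106, plus strand), was the member that passed the edgeR threshold. It had 9.99 and 10.4 CPM with HMOX1si1, 4.86 and 5.97 CPM with HMOX1si2, and 11.5 and 11.3 CPM with siControl. Both HMOX1si2 libraries lay below all others, and both HMOX1si1 libraries lay just below both controls. The means were 10.2 ± 0.309 CPM for HMOX1si1, 5.42 ± 0.781 CPM for HMOX1si2 and 11.4 ± 0.111 CPM for siControl (SD, n = 2 each).

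With HMOX1si2, CLDN23 fell to 0.476 times the siControl level, a log2 fold change of -1.07 (edgeR, SE 0.15, adjusted p = 0.0236, 95% interval -1.43 to -0.71). With HMOX1si1 the log2 fold change was -0.16 (edgeR, SE 0.15, adjusted p = 0.495, 95% interval -0.51 to 0.20). The difference itself, HMOX1si2 minus HMOX1si1, was -0.91 (edgeR, SE 0.15, adjusted p = 0.0333). That call was lost in 11 of 15 alternatives, among them each of the 6 fits with 1 library left out (edgeR adjusted p 0.0546 to 0.159, difference -1.07 to -0.77). The average over both siRNAs was -0.61 (edgeR adjusted p = 0.0367), a call lost in 8 of 14 alternatives (adjusted p up to 0.181 without siControl replicate 2). The call of the fall with HMOX1si2 rests on few libraries and was lost in 7 of 15 alternatives. It ended without siControl replicate 1 or 2, HMOX1si1 replicate 1 or 2, or HMOX1si2 replicate 1. A fit on HMOX1si2 and siControl alone and the replicate block also ended it. The HMOX1si1 libraries are not in this comparison and enter its test through the estimate of the spread shared by all groups. Without siControl replicate 2 the loss of calls was general over all genes and not particular to CLDN23. The log2 fold change of CLDN23 with HMOX1si2 stayed between -1.23 and -0.93 under all 15 alternatives run. CLDN23 shares no exonic base with another gene of the table in GENCODE 29.

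**Figure D2:**
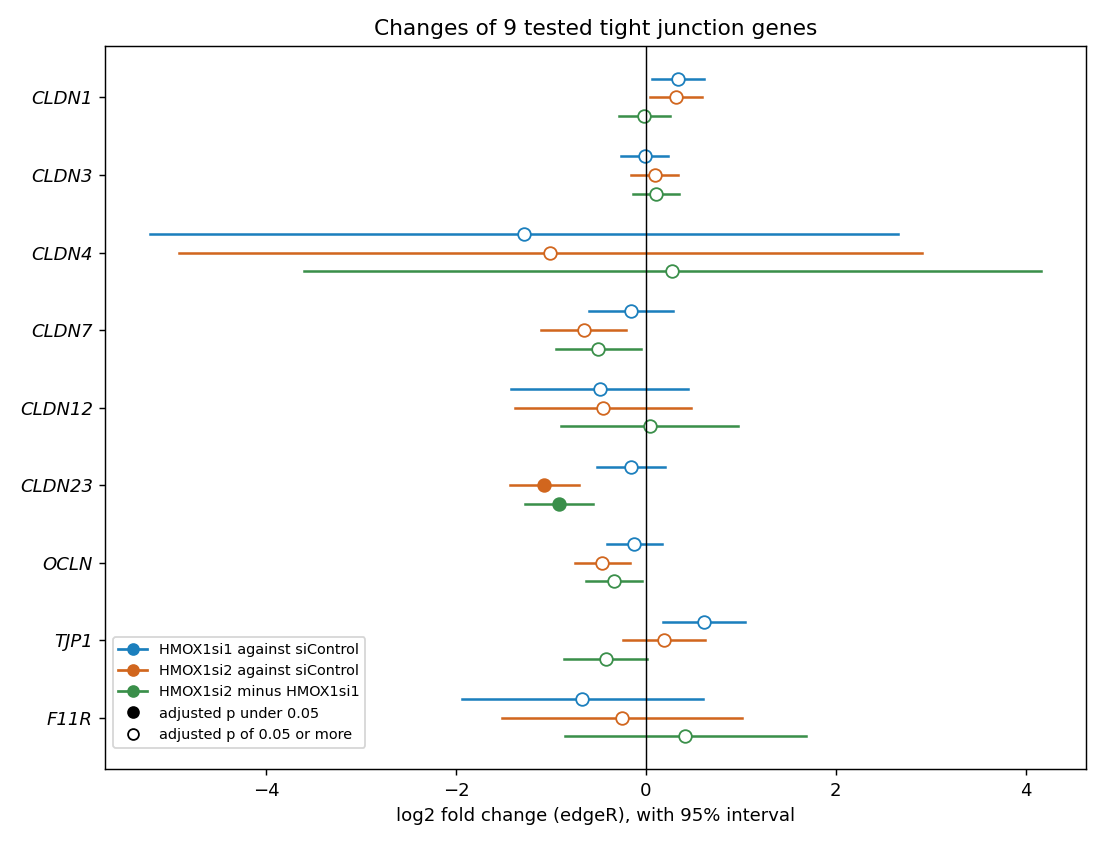
The log2 fold change of each of the 9 tested genes is drawn with its 95% interval from edgeR for HMOX1si1 and HMOX1si2 against siControl and for HMOX1si2 minus HMOX1si1; filled points have an adjusted p under 0.05. The filled points are those of CLDN23, at -1.07 with HMOX1si2 and -0.91 for the difference, and CLDN4 has the widest interval, -5.23 to 2.66 with HMOX1si1.

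CLDN4 (ENSG00000189143, GRCh38 chromosome 7, 73799542 to 73832693, plus strand), a claudin that lowers sodium permeability, was the most abundant claudin of the controls and the least repeatable member. Its counts were 257 and 25886 with HMOX1si1, 28009 and 6640 with HMOX1si2, and 26766 and 37838 with siControl. On the CPM scale these were 6.13 and 647 with HMOX1si1, 646 and 147 with HMOX1si2, and 740 and 853 with siControl. HMOX1si1 replicate 1 was thus 106 times lower than its partner, and HMOX1si2 replicate 2 was 4.40 times lower than its partner, whereas the controls were 1.15-fold apart.

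All 4 knockdown libraries lay below both controls for CLDN4, a position that 18.2% of all tested genes shared. The log2 fold changes were -1.29 with HMOX1si1 (edgeR, SE 1.62, adjusted p = 0.620) and -1.01 with HMOX1si2 (edgeR, SE 1.61, adjusted p = 0.727). Without the low library of each siRNA group, in a 4-library fit chosen after the values were seen, they were -0.31 (edgeR adjusted p = 0.262) and -0.31 (adjusted p = 0.272). That fit takes each lone siRNA library to vary as the 2 controls do. With all 6 libraries the 95% interval of the HMOX1si1 value ran from -5.23 to 2.66.

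The gap in CLDN4 was rare but not alone. Of 10838 expressed genes (those averaging 2 or more on the log2 CPM scale), 65 were over 4-fold apart between replicates in at least 1 group, and CLDN4 was the 1 member among them. In 9 genes, CLDN4 among them, the count was over 3-fold lower in both HMOX1si1 replicate 1 and HMOX1si2 replicate 2 than in the partner library, and in 5 it was over 3-fold higher in both. CLDN4 shares no exonic base with another gene of the table in GENCODE 29, and why the libraries differ was not tested.

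CLDN1 (ENSG00000163347, GRCh38 chromosome 3, 190305701 to 190322475, minus strand), a sealing claudin needed for the skin barrier of mice, was the member that stood on the higher side with both siRNAs. It had 105 and 114 CPM with HMOX1si1, 117 and 99.6 CPM with HMOX1si2, and 88.1 and 85.5 CPM with siControl. All 4 knockdown libraries exceeded both controls, as in 18.7% of all tested genes. The log2 fold change was 0.34 with HMOX1si1 (edgeR, SE 0.11, adjusted p = 0.104) and 0.32 with HMOX1si2 (edgeR, SE 0.11, adjusted p = 0.146), neither of which passed. The siRNAs differed by -0.02 for CLDN1 (edgeR adjusted p = 0.948, 95% interval -0.29 to 0.25). DESeq2 called the average over both siRNAs (adjusted p = 0.0331), where edgeR gave 0.33 with an adjusted p of 0.0849.

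CLDN3 (ENSG00000165215, GRCh38 chromosome 7, 73768997 to 73770270, minus strand), a sealing claudin encoded close to CLDN4, was the member with the least movement between groups. Its level was 55.5 and 53.4 CPM with HMOX1si1, 61.9 and 55.3 CPM with HMOX1si2, and 53.0 and 57.0 CPM with siControl. The groups overlapped. The 95% interval of the log2 fold change was -0.26 to 0.23 with HMOX1si1 (estimate -0.01, edgeR adjusted p = 0.941) and -0.15 to 0.34 with HMOX1si2 (estimate 0.09, edgeR adjusted p = 0.594).

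CLDN7 (ENSG00000181885, GRCh38 chromosome 17, 7259903 to 7263983, minus strand), a claudin also found along the lateral membrane, had 73.6 and 54.3 CPM with HMOX1si1, 40.4 and 49.9 CPM with HMOX1si2, and 66.3 and 76.1 CPM with siControl. Both HMOX1si2 libraries were below the other 4, and the HMOX1si1 libraries overlapped the controls. Its log2 fold change with HMOX1si2 was -0.66 (edgeR, SE 0.18, adjusted p = 0.0955), which missed the threshold in edgeR, while DESeq2 gave an adjusted p of 0.0148. With HMOX1si1 it was -0.16 (edgeR adjusted p = 0.594). CLDN7 shares 269 exonic bases, 10.8% of its exons, with ENSG00000262302 on the same strand and 38 bases with ELP5 on the opposite strand, and with the counts of these genes added its value with HMOX1si2 was -0.58 (edgeR adjusted p = 0.182).

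CLDN12 (ENSG00000157224, GRCh38 chromosome 7, 90383721 to 90513402, plus strand), a claudin without the usual scaffold-binding tail, had 49.4 and 81.4 CPM with HMOX1si1, 64.3 and 70.0 CPM with HMOX1si2, and 125 and 58.7 CPM with siControl. The 2 controls were 2.13-fold apart and the knockdown libraries lay between or below them, so the groups overlapped. Its log2 fold change was -0.49 with HMOX1si1 (edgeR adjusted p = 0.423) and -0.45 with HMOX1si2 (edgeR adjusted p = 0.489). Without siControl replicate 1 these turned to 0.15 and 0.19. CLDN12 shares 347 exonic bases with GTPBP10 and 201 with CDK14.

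CLDN18 (ENSG00000066405, GRCh38 chromosome 3, 137998735 to 138033655, plus strand), the claudin of stomach and lung epithelium that many pancreatic tumours carry, had 0 and 2 counts with HMOX1si1, 0 and 1 counts with HMOX1si2, and 0 and 0 counts with siControl. It was near or at 0 in every library. A count of 0 allows a level of up to 3 counts, 0.0663 to 0.0829 CPM over the 6 libraries, and this limit covers counting error only. Among all values from 1 to 10, 71.9% were even, against 49.9% of those over 100, and the limit would be higher if 1 molecule gave more than 1 count, which was not tested.

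OCLN (ENSG00000197822, GRCh38 chromosome 5, 69492292 to 69558104, plus strand) had 37.1 and 41.8 CPM with HMOX1si1, 30.1 and 32.3 CPM with HMOX1si2, and 46.1 and 39.7 CPM with siControl. As for CLDN7 and CLDN23, both HMOX1si2 libraries were below the other 4. How many of all tested genes shared this position was not counted. Of these genes, 28.2% had both HMOX1si2 libraries below both controls and 26.0% had them below both HMOX1si1 libraries. The log2 fold change with HMOX1si2 was -0.46 (edgeR, SE 0.12, adjusted p = 0.0829), which missed the threshold in edgeR and passed it in DESeq2 (adjusted p = 0.0207). With HMOX1si1 it was -0.12 (edgeR adjusted p = 0.523), and the difference between the siRNAs was -0.34 (edgeR adjusted p = 0.186).

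F11R (ENSG00000158769, GRCh38 chromosome 1, 160995211 to 161021348, minus strand) had 118 and 48.9 CPM with HMOX1si1, 63.8 and 158 CPM with HMOX1si2, and 134 and 132 CPM with siControl. The controls were close together, and in each siRNA group 1 library was far below the other, though not the library that was low for CLDN4. The log2 fold changes, -0.67 with HMOX1si1 (edgeR, SE 0.52, adjusted p = 0.419) and -0.26 with HMOX1si2 (edgeR adjusted p = 0.787), did not pass. F11R shares 1853 exonic bases, 36.6% of its exons, with ENSG00000270149. Adding the counts of that gene moved the values to -0.68 and -0.27.

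TJP1 (ENSG00000104067, GRCh38 chromosome 15, 29699367 to 29968865, minus strand) had 125 and 159 CPM with HMOX1si1, 120 and 92.4 CPM with HMOX1si2, and 100 and 86.1 CPM with siControl. Both HMOX1si1 libraries were above the other 4, and the HMOX1si2 libraries overlapped the controls. Its log2 fold change was 0.61 with HMOX1si1 (edgeR, SE 0.18, adjusted p = 0.0808), short of the threshold in edgeR and past it in DESeq2 (adjusted p = 0.0169). With HMOX1si2 it was 0.19 (edgeR adjusted p = 0.538), and the difference between the siRNAs was -0.43 (edgeR adjusted p = 0.250).

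Where both libraries of an siRNA group lay on 1 side of both controls, the counts again stood near the background. With HMOX1si1, 2 of the 9 genes were higher in this way (CLDN1 and TJP1) and 3 were lower (CLDN4, CLDN23 and F11R), beside 31.9% of all tested genes higher and 31.9% lower. With HMOX1si2, 1 was higher (CLDN1) and 4 were lower (CLDN4, CLDN7, CLDN23 and OCLN), beside 28.9% higher and 28.2% lower. Between the siRNAs, 4 were lower with HMOX1si2 than with HMOX1si1 in this way (CLDN7, CLDN23, OCLN and TJP1), beside 26.0% of all tested genes, and 0 were higher, beside 25.3%.

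Levels can be compared between genes only per length, here CPM per kb of mean coding transcript length in the siControl libraries. CLDN4 led with 236 ± 23.7, followed by CLDN7 with 52.5 ± 5.11, CLDN3 with 43.1 ± 2.23, F11R with 36.7 ± 0.386, CLDN12 with 26.0 ± 13.3 and CLDN1 with 24.9 ± 0.530 (SD, n = 2 each). TJP1 had 15.4 ± 1.64, OCLN 9.48 ± 0.991 and CLDN23 5.25 ± 0.0513 CPM per kb. CLDN12 and its neighbours in this order, F11R and CLDN1, do not differ beyond their spread. The order depends on the length used: per kb of all annotated exons CLDN7 had 28.6 and CLDN3 43.1 CPM. The table holds 24 claudin genes, and 9 were above 1 CPM in every library. Of these, 5 were above 10 CPM in every library: CLDN1, CLDN2, CLDN3, CLDN7 and CLDN12. CLDN4 was not, since HMOX1si1 replicate 1 had 6.13 CPM. CLDN8, CLDN10, CLDN17, CLDN22 and CLDN25 were at 0 in all 6. On the opposite strand, WWC2 shares 100% of the exonic bases of CLDN22 and DZIP1 46.1% of those of CLDN10. Whether reads of such pairs could be told apart was not tested.

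**Figure D3:**
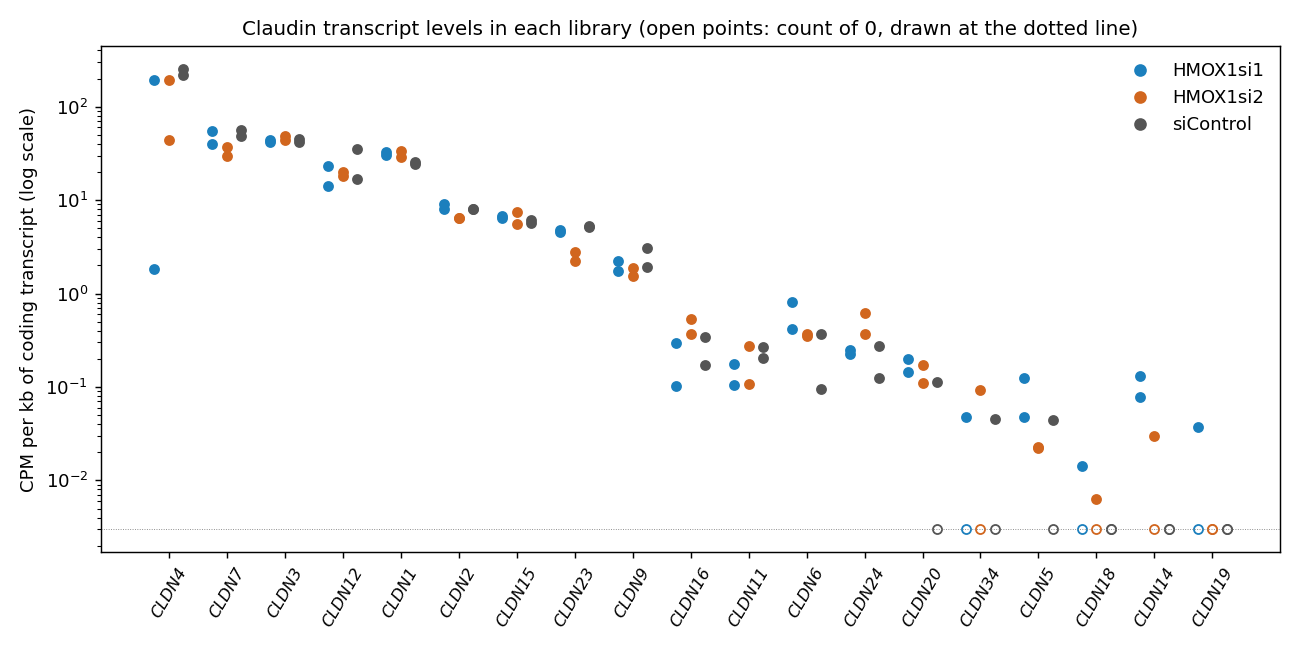
CPM per kb of mean coding transcript length (log axis) is plotted per library for the 19 claudins with a count in any library, ordered by level, with counts of 0 as open points on the dotted line. CLDN4 is the highest in the controls, at 236 CPM per kb on average, and CLDN23 stands at 5.25, with its HMOX1si2 points under the others.

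Of the 17 claudins outside the set 7 were tested, and edgeR called 0 of them in each of the 4 comparisons; with HMOX1si2 1 had an unadjusted p under 0.05 and DESeq2 called 0, and for the difference between the siRNAs edgeR gave 1 and DESeq2 called 1. With HMOX1si1 and for the average 0 had an unadjusted p under 0.05 and DESeq2 called 0. CLDN2, a pore for cations, which shares 341 exonic bases with RIPPLY1 on the opposite strand, had 23.9 and 27.4 CPM with HMOX1si1, 19.3 and 19.5 CPM with HMOX1si2, and 24.3 and 24.2 CPM with siControl. Both HMOX1si2 libraries were the lowest, with a log2 fold change of -0.32 that did not pass (edgeR adjusted p = 0.144). CLDN9 averaged -0.43 over both siRNAs (edgeR adjusted p = 0.252), and CLDN6 and CLDN24 were under 1 CPM in every library.

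SNAI1, SNAI2 and ZEB factors are textbook repressors that bind E-boxes, and several claudin promoters and the OCLN promoter are known targets in other cells. The bases that such factors can read are shown here for the members whose window holds them. The windows run from 250 bases before to 50 after each RefSeq start site (RefSeq, GRCh38.p14), and the letters searched were CAGGTG and its reverse complement CACCTG, which covers both strands. Such letters occurred in 20.6% of all 35116 windows of this length. Of 8 members with a window, 5 held a match in at least 1 window, against 24.1% of all 27305 genes with windows. CLDN1, CLDN4 and CLDN12 had none in their windows. CLDN23 and F11R were not among the 8 members searched. Members differ in their number of windows (14 in all, 6 with a match). Capitals mark the E-box letters in each sequence, written 5′ to 3′ on the gene's strand.
CLDN18 chr3:137998707-137998732 (+): agggcaagccCAGGTGgcactggtga
OCLN chr5:69492504-69492529 (+): atccgagtttCAGGTGaattggtcac
OCLN chr5:69492647-69492672 (+): taggacgcagCAGGTGggactcgcgg
OCLN chr5:69492815-69492839 (+): ggtgcggcgtCAGGTGcgcccgcca
CLDN3 chr7:73770221-73770244 (-): aagccacaggCAGGTGcaggcgca
TJP1 chr15:29969122-29969147 (-): ggccggcgcgCAGGTGgcccggcctc
CLDN7 chr17:7262637-7262662 (-): tcttcctcctCACCTGggcaaggagg
CLDN7 chr17:7262598-7262623 (-): acttccggttCAGGTGagtgtccctt
CLDN7 chr17:7262483-7262508 (-): tacatatactCAGGTGcgccccacct
CLDN7 chr17:7262472-7262497 (-): aggtgcgcccCACCTGtccgcccgca
CLDN7 chr17:7262458-7262483 (-): tgtccgcccgCACCTGctggctcacc
CLDN7 held 5 sites around its second start site, OCLN 3, and CLDN3, CLDN18 and TJP1 1 each. In GENCODE 29 the sites of CLDN18 and TJP1 lie upstream of the gene and the others in untranslated exon sequence. A match is a description of letters and not a site in use.

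Of 17 tested genes that are known to regulate claudin or epithelial genes, 2 rose and 3 fell with HMOX1si1, and 0 were called with HMOX1si2 (edgeR), where 6 had an unadjusted p under 0.05, as did 25.9% of all tested genes, and DESeq2 called 2. Over all tested genes 5.02% rose and 5.01% fell with HMOX1si1, and 3.06% rose and 2.67% fell with HMOX1si2. Both that rose, SNAI1 and SNAI2, are E-box-binding repressors. SNAI2 had 66.0 and 86.1 CPM with HMOX1si1, 63.4 and 47.2 CPM with HMOX1si2, and 33.6 and 33.4 CPM with siControl, above both controls in all 4 knockdown libraries. It rose with HMOX1si1 (log2 fold change 1.18, edgeR adjusted p = 0.0206), and with HMOX1si2 its value was 0.72 (edgeR adjusted p = 0.0801). SNAI1 had 3.24 and 5.00 CPM with HMOX1si1, 3.18 and 2.12 CPM with HMOX1si2, and 1.33 and 1.53 CPM with siControl. It rose with HMOX1si1 (log2 fold change 1.52, edgeR adjusted p = 0.0353), with a value of 0.89 with HMOX1si2 (edgeR adjusted p = 0.147). For neither gene did the test of the difference between the siRNAs pass (edgeR adjusted p = 0.233 for SNAI2 and 0.295 for SNAI1).

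The 3 regulators that fell with HMOX1si1 are epithelial factors. OVOL1, a repressor of mesenchymal genes, fell by 1.43 on the log2 scale (edgeR adjusted p = 0.00675), and its difference between the siRNAs was 1.13 (edgeR adjusted p = 0.0173). ESRP2, an epithelial splicing factor, fell by 0.67 (edgeR adjusted p = 0.0284), also with a difference between the siRNAs, 0.97 (edgeR adjusted p = 0.0178). CDX2, an intestinal transcription factor known to drive CLDN2 in gut cells, fell by 0.84 (edgeR adjusted p = 0.0209). OVOL1 and ESRP2 were thus higher with HMOX1si2 than with HMOX1si1, whereas CLDN23 was lower, and a link between them was not tested. KRT8, KRT18 and KRT19 among the epithelial markers also fell with HMOX1si1, and their part in these values was not tested. ESRP2 shares 149 exonic bases with NFATC3 on the opposite strand and KRT8 shares 525 with KRT18, and since no source here says whether counting used strand, reads of such pairs may not be told apart.

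Of 22 tested scaffolds and adaptors, 1 rose and 2 fell with HMOX1si1, beside 5.02% and 5.01% of all tested genes, and 2 rose and 1 fell with HMOX1si2, beside 3.06% and 2.67%. PARD6B and PARD3, which join with atypical protein kinase C in the polarity complex at the junction, changed with both siRNAs and in opposite directions. PARD6B had 34.7 and 36.3 CPM with HMOX1si1, 32.1 and 35.7 CPM with HMOX1si2, and 54.2 and 59.5 CPM with siControl, and fell by 0.68 with HMOX1si1 (edgeR adjusted p = 0.0194) and by 0.75 with HMOX1si2 (edgeR adjusted p = 0.0243). PARD3 had 107 and 108 CPM with HMOX1si1, 116 and 117 CPM with HMOX1si2, and 85.0 and 81.8 CPM with siControl, and rose by 0.36 with HMOX1si1 (edgeR adjusted p = 0.0487) and by 0.49 with HMOX1si2 (edgeR adjusted p = 0.0356). They were the scaffolds that passed with both siRNAs.

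Other scaffolds passed with 1 siRNA or for the difference alone. PARD6A, a relative of PARD6B, fell by 0.92 with HMOX1si1 (edgeR adjusted p = 0.0325), and HMOX1si2 minus HMOX1si1 was 0.96 (edgeR adjusted p = 0.0465). PATJ, a scaffold of the Crumbs complex, rose by 0.57 with HMOX1si2 (edgeR adjusted p = 0.0496), and the difference was 0.94 (edgeR adjusted p = 0.0180). MAGI1, a scaffold of the junction plaque, passed only for the difference, -0.93 (edgeR adjusted p = 0.0428), with 86.1 and 91.5 CPM in HMOX1si1 libraries and 52.9 and 40.6 CPM in HMOX1si2 libraries.

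Among 11 tested membrane proteins beside claudins, 1 fell with HMOX1si1, where 5.01% of all tested genes fell, and 1 rose and 1 fell with HMOX1si2, where 3.06% rose and 2.67% fell. CRB3, the apical polarity protein of the Crumbs family, which shares 15 exonic bases with DENND1C on the opposite strand, had 8.30 and 6.83 CPM with HMOX1si1, 13.6 and 16.1 CPM with HMOX1si2, and 14.8 and 14.2 CPM with siControl. It fell by 0.94 with HMOX1si1 (edgeR adjusted p = 0.0231), and HMOX1si2 minus HMOX1si1 was 0.97 (edgeR adjusted p = 0.0336). CLMP, an adhesion molecule related to CXADR, fell by 0.64 with HMOX1si2 (edgeR adjusted p = 0.0257), and ILDR2, of the angulin family of cell corners, rose by 1.46 with HMOX1si2 (edgeR adjusted p = 0.0452), with under 1 CPM in both controls. MARVELD2, the tricellulin gene, averaged 0.32 (edgeR adjusted p = 0.102).

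Of 11 tested adherens junction genes, 1 rose with each siRNA, where 5.02% of all tested genes rose with HMOX1si1 and 3.06% with HMOX1si2. NECTIN1 rose by 0.56 with HMOX1si1 (edgeR adjusted p = 0.0353), and CDH3, P-cadherin, rose by 1.04 with HMOX1si2 (edgeR adjusted p = 0.0243), with a difference between the siRNAs of 1.19 (edgeR adjusted p = 0.0176). CDH1, E-cadherin, had 111 and 98.5 CPM with HMOX1si1, 142 and 112 CPM with HMOX1si2, and 91.0 and 74.9 CPM with siControl, above both controls in all 4 knockdown libraries with an average log2 fold change of 0.47 that did not pass (edgeR adjusted p = 0.0849). AFDN averaged 0.61 (edgeR adjusted p = 0.0659).

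**Figure D4:**
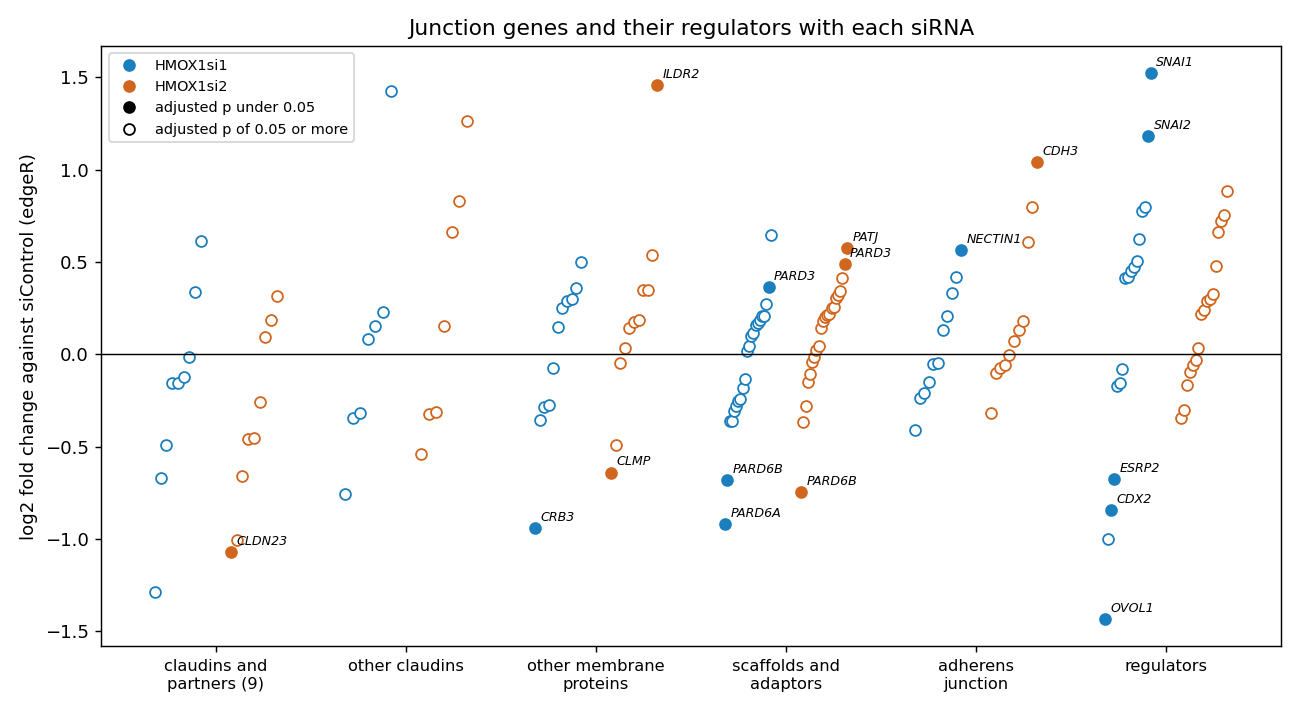
Each point is a tested gene's log2 fold change against siControl from edgeR, with HMOX1si1 left and HMOX1si2 right within each gene list; filled points have an adjusted p under 0.05 and are named. CLDN23 is the filled point of the claudins and partners, at -1.07, while SNAI1 at 1.52 and OVOL1 at -1.43 mark the range of the regulators with HMOX1si1.

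As a description over the 6 libraries, the genes whose log2 CPM was most like each of the 4 members with the widest range of group means were searched among 10837 other genes. For CLDN23 they were MGAT2 (Pearson r 0.999) and ANXA5 (0.998), for CLDN4 FAM104B (0.995) and RHOQ (0.980), for F11R CBX8 (0.994) and SLC35A1 (0.993), and for CLDN7 RNF5 (0.994). With 6 points in 3 groups and so many genes searched, values this near 1 carry little weight. Among the members, CLDN23 and OCLN had r = 0.931, CLDN7 and CLDN23 0.874 and CLDN1 and TJP1 0.802 over the same 6 libraries. Negative values of like size occurred too, -0.849 for TJP1 and F11R, -0.793 for CLDN3 and OCLN and -0.776 for CLDN1 and F11R.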

How the data were processed

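Polyadenylated RNA of AsPC-1 cells was measured by RNA-seq in 6 libraries, 2 per siRNA group. The authors deposited 1 table of whole numbers per Ensembl gene and library, taken here to be estimated counts because no label states the unit; rounding them changed nothing. GRCm38 and mm10, which are mouse builds, are listed in the submitters' processing notes, although the gene identifiers are human. The aligner is not given in the sources used here, nor is the counting tool. Coordinates, lengths and exonic overlap come from GENCODE 29 (GRCh38), and reads of overlapping genes may have been divided between them.

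Genes were kept by filterByExpr (13769), scaled by TMM and fitted over all 6 libraries with 1 mean per group in edgeR 4.0.16 (glmQLFit, glmQLFTest; limma 3.58.1, R 4.3.3). Tested were HMOX1si1 and HMOX1si2 against siControl, their average against siControl, and HMOX1si2 minus HMOX1si1; p-values were adjusted by Benjamini-Hochberg over all tested genes, with a threshold of 0.05. The 95% intervals use an SE derived from the fold change and the F statistic. log2 CPM used a prior count of 2. The script was tested on simulated data. Alternatives were DESeq2 1.42.0, RLE factors or library totals as scaling, no low-count filter, glmTreat against 1.2-fold, the 2 groups alone, the replicate number as a block and each library left out. Sums with overlapping genes, a crossed block and a 4-library fit were added after seeing the data.

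The members and the gene lists were chosen with earlier results of these data known, so their counts are not independent support. Named were HMOX1, all members, of each other list up to 4 genes with the smallest p for the average and any gene past the threshold, and, for 4 members, the 2 genes most like each. A gene that this rule names is not reported here. B2M was named after its values were seen. The promoter search left out windows on chromosome 8, where CLDN23 lies, and found no window for F11R. Its counts of members with a match therefore cover neither gene.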

Additional observations from a re-analysis of the deposited data

Results flagged for a closer look

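CLDN23 differed between the siRNAs: HMOX1si2 minus HMOX1si1 was -0.91 on the log2 scale (edgeR quasi-likelihood test, adjusted p = 0.0333), with 4.86 and 5.97 CPM in the HMOX1si2 libraries and 9.99 and 10.4 CPM in the HMOX1si1 libraries. The call was lost in 11 of 15 alternatives, among them each fit with 1 library left out (edgeR adjusted p 0.0546 to 0.159). For HMOX1 itself HMOX1si2 minus HMOX1si1 was -1.10 on the log2 scale, and the part of either in the other was not tested.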

How the results depend on the processing

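The number of members past the threshold was 0 with HMOX1si1, 1 with HMOX1si2, 1 for the average and 1 for the difference between the siRNAs, and it was the same with library totals, RLE factors or no low-count filter. With DESeq2 it was 1, 3, 2 and 1, with glmTreat 0, 1, 0 and 0, and with the 2 groups alone 0, 0 and 0 for the comparisons that allow it. The 4-library fit gave 2, 3, 4 and 0; F11R is called in it, but that fit keeps its low library in each siRNA group. Leaving out each library in turn gave 0 to 0, 0 to 1, 0 to 1 and 0 to 0. Over all genes, no call with either siRNA or on average held without siControl replicate 2 (edgeR), a fit that leaves 1 control library. The calls of the junction lists in these comparisons therefore rest on that library.

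The replicate numbers share no stated origin, and same-numbered libraries did not deviate together (r -0.066 for HMOX1si1 and siControl, 0.0621 for HMOX1si2 and siControl, -0.35 for HMOX1si2 and HMOX1si1). By the negative last value, over 10838 genes, HMOX1si1 replicate 1 tended to deviate with HMOX1si2 replicate 2. These are the libraries that were low for CLDN4, and why they deviate together was not tested. With the replicate block 0, 0, 0 and 0 members were called, with CLDN23 at -1.08 with HMOX1si2 (edgeR adjusted p = 0.0664), and 481, 45, 255 and 87 genes in all. The crossed block called 0, 1, 0 and 0 members.

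Directions that turned did so for members that had not passed. With 1 library left out, the log2 fold change ranged with HMOX1si1 from -0.069 to 0.045 for CLDN3, -0.40 to 0.049 for CLDN7 and -0.93 to 0.15 for CLDN12. With HMOX1si2 it ranged from -0.89 to 0.19 for CLDN12, -0.0099 to 0.36 for TJP1 and -1.06 to 0.25 for F11R. On average it ranged from -0.017 to 0.098 for CLDN3 and -0.91 to 0.17 for CLDN12. The difference between the siRNAs ranged from -0.14 to 0.089 for CLDN1, -1.15 to 6.01 for CLDN4, -0.27 to 0.44 for CLDN12 and -0.39 to 1.19 for F11R, and the 4-library fit turned it to 0.037 for CLDN1, -0.0021 for CLDN4 and -0.34 for CLDN12. The cause was not tested. With 2 libraries a group, members whose replicates differ as those of CLDN4, CLDN12 and F11R do cannot be given a direction at this precision.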

Other observations

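B2M, the light chain of MHC class I, was chosen after its values were seen because its libraries split as those of CLDN4 did. Its counts were 3067 and 12453 with HMOX1si1, 13113 and 3694 with HMOX1si2, and 12162 and 15469 with siControl. The low libraries were HMOX1si1 replicate 1 and HMOX1si2 replicate 2, the same as for CLDN4.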
